A study of Mus musculus with 4 samples.

Results

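Mice carry a pair of lysozyme C genes side by side, Lyz1 and Lyz2, and the Cre line used to delete PD-1 in myeloid cells sits inside one of them. The rows of both genes, chosen by gene name, were analysed across 4 RNA-seq libraries, as 2 genes of 24706 listed. Lysozyme is a secreted enzyme that hydrolyses the peptidoglycan of bacterial cell walls. Lyz2, the M type, is the enzyme of neutrophils, monocytes and macrophages and one of their most abundant transcripts, whereas Lyz1, the P type, is known above all from the granules of intestinal Paneth cells. LysM-Cre is a knock-in in which the Cre recombinase was placed at the start of the Lyz2 coding region, so that Cre is made where Lyz2 is made and the recombined allele does not encode lysozyme.

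By the study's results, the libraries were made from myeloid cells of PD-1f/f mice (wt, n = 2), whose Pdcd1 alleles carry LoxP sites. The others came from PD-1f/f; LysM-Cre mice (cko, n = 2), which carry the same LoxP sites and Cre. Its methods, however, call the RNA-seq groups wild-type and PD-1 knockout, and the labels read only wt and cko. Whether the wt mice carried LoxP sites is thus not certain. The study described the cells as CD11b+ cells sorted from P3 liver and elsewhere as P2 liver RNA, and the libraries carry no age. The labels did not say whether 1 or both Lyz2 alleles carried Cre, nor whether the libraries came from separate animals. The p-values thus measure the spread between these libraries, which in cko may be technical. By genotype, every cko library combined the Cre allele with floxed Pdcd1, so that effects of the Cre insertion and of PD-1 deletion cannot be told apart, and Cre transcripts were not analysed here. In bulk RNA, fewer cells of a type and less RNA per cell cannot be told apart.

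Both genes lie on the minus strand of chromosome 10 and have 4 exons each (GRCm38). Lyz2 (ENSMUSG00000069516) spans chr10:117277331-117282321 and Lyz1 (ENSMUSG00000069515) spans chr10:117287797-117292868, with 5475 bases between them. Their annotated transcripts of 1316 and 1263 bases were 92.0% identical over the aligned positions, and their coding sequences of 447 bases differed at 22 positions. Of these, 14 fell in the coding part of exon 1, 6 in exon 2, 0 in exon 3 and 2 in exon 4. The coding part of exon 1 is shown because it is where a short read can best tell the genes apart and where Cre was inserted in Lyz2, and capitals mark the bases that differ:
Lyz2 exon 1, chr10:117282107-117282242: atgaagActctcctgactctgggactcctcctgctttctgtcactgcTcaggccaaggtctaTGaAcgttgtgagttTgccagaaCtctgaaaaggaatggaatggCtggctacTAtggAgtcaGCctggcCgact
Lyz1 exon 1, chr10:117292703-117292838: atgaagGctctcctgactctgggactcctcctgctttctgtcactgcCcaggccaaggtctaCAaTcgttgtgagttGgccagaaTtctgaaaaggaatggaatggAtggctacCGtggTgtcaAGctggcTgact

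Exon 3 is shown because it reads the same in both genes, over all 79 bases, at chr10:117278643-117278721 in Lyz2 and chr10:117289119-117289197 in Lyz1:
Exon 3 of both: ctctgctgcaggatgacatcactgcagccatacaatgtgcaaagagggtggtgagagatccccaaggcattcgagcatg

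The longest identical run of the transcripts was 118 bases. Of all stretches of 50 bases in the Lyz1 transcript, 16.1% were also found in Lyz2, against 2.06% of stretches of 100 bases and none of 125 bases. Neither the read length nor the treatment of reads with several alignments was stated, so that the assignment of reads between the genes is uncertain.

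**Figure D1:**
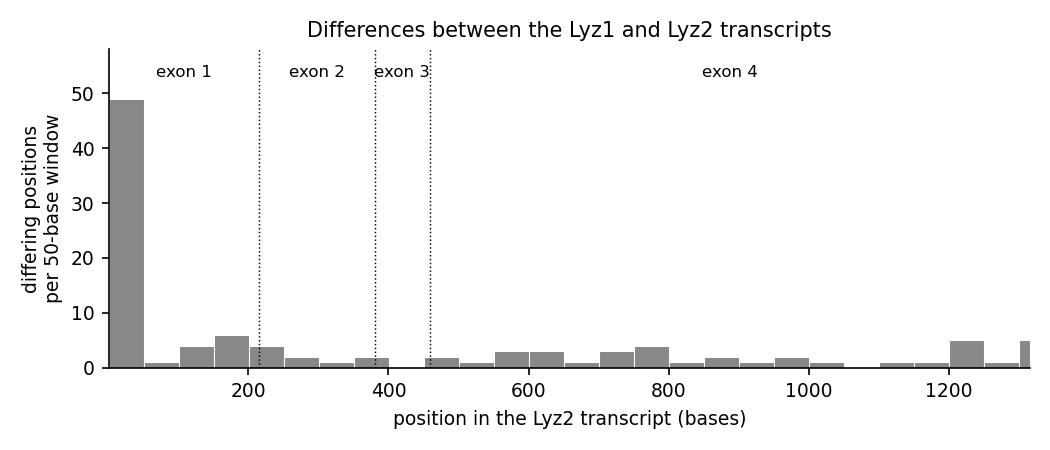
Positions at which the Lyz1 transcript differs from the Lyz2 transcript, per window of 50 bases (y axis) along the 1316 bases of Lyz2 (x axis), with dotted lines between exons. The first window counts 49 positions, mostly a longer annotated first exon of Lyz2, and every later window counts 0 to 6.

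The upstream stretches are shown because the neighbours differed in direction, and capitals mark a 7-base match to the ETS motif AGGAAGT, read on the opposite strand. The sequences run from 250 to 50 bases before the RefSeq start site (RefSeq, GRCm38.p6, minus strand), which leaves out the annotated first exon of Lyz2 in GENCODE, 49 bases longer than in RefSeq:
Lyz2 upstream, chr10:117282322-117282522: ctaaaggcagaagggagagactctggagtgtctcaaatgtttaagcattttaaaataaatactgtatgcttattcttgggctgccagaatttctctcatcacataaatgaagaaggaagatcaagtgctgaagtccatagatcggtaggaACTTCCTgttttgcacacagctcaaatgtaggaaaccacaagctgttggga
Lyz1 upstream, chr10:117292918-117293118: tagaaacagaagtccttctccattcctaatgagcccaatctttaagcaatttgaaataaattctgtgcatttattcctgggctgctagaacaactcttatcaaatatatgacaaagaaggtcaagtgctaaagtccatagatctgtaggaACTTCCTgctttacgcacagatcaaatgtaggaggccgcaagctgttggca

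With gaps allowed, 72.9% of 210 aligned positions were identical in these stretches. In the RefSeq windows, which run from 250 bases before to 50 bases from the start site on, an identical run of 86 bases followed, which began at the last base shown. The ETS match began 100 bases before the start site in both genes, and 9.35% of 32851 RefSeq windows held it on either strand. TTNNGNAA, a loose C/EBP motif that 40.7% of windows held, matched 1 time in each gene, 209 bases before the start site of Lyz1 and 55 bases before that of Lyz2, where it runs past the stretch shown. The E-box CAGCTG, in 16.3% of windows, began 6 bases after the start base of both genes. The TATA box TATAAA, in 13.6% of windows, matched neither window. These are matches of letters and do not show binding.

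The libraries held between 17691505 and 22212407 counted reads, as recovered from the FPKM steps, and their FPKM summed to 491983 and 457127 in wt and 412778 and 403900 in cko. The PD-1 gene Pdcd1, the targeted gene, was measured at 28.5 and 34.7 FPKM in wt and 17.1 and 21.4 FPKM in cko. It was lower in both cko libraries, with a log2 fold change of -0.69 (SE 0.19, limma adjusted p = 0.218), and was far from absent. FPKM count reads over all exons of a gene, so that this value does not measure how complete the deletion was. The study reported reduced PD-1 by qPCR, by Western blot of bone marrow and by flow cytometry of myeloid progenitors. The blot and the flow cytometry measure protein, not RNA. Itgam, which encodes CD11b, was present in all libraries at 48.5 to 54.3 FPKM. Library wt2 stood apart in the Y-linked gene Ddx3y, at 24.9 FPKM against at most 0.00866 FPKM in the others. The wt libraries thus did not come from the same animal or pool, and by this gene Y-linked expression was found in wt only. The lysozyme values are therefore also given without wt2.

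Lyz2 was the gene of the pair that neutrophil-rich myeloid cells use, and it was lower in cko. It was measured at 31306 and 32147 FPKM in wt and at 10422 and 8127 FPKM in cko. The wt libraries lay within 1.03-fold of each other, the cko libraries within 1.28-fold, and the groups did not overlap. Means were 31726 ± 594 FPKM in wt and 9274 ± 1623 FPKM in cko (SD, n = 2), which is 3.42-fold lower in cko. Behind these values stood 915126 and 796294 reads in wt and 257053 and 189208 reads in cko, so that counting error was small beside the spread between libraries. The log2 fold change was -1.79 (SE 0.18, n = 2 a group) by limma, on log2(FPKM + 1) over the 10779 genes that reached a mean of 1 FPKM. Lyz2 ranked 5 by p among them.

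After Benjamini-Hochberg adjustment, however, Lyz2 did not pass (limma adjusted p = 0.183), and neither did any other gene at an adjusted p under 0.05 with a log2 fold change of at least 1, so that 0% were called. At an unadjusted p under 0.05 there were 1768 genes, of which those higher in cko made up 11.4% of tested genes and those lower 4.95%. With limma's voom on recovered reads, 2 genes passed the adjusted threshold, Lyz2 (log2 fold change -1.78, adjusted p = 0.0181) and the lincRNA Gm28875. By the looser threshold of an unadjusted p under 0.01 with a log2 fold change above 1 in size, Lyz2 was 1 of 44 genes lower in cko, 0.408% of those tested, beside 203 genes (1.88%) higher. Only 11 tested genes, Lyz2 included, had a log2 fold change as low as that of Lyz2. Without wt2, the log2 fold change was -1.77. The looser threshold was missed under quantile normalization, which sets values by rank (-0.16), and without a filter on low values (-1.79, SE 0.83).

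Lyz2 stood near the top of each library. It ranked 4 and 3 among 24706 genes in wt and 4 in both cko libraries, even though its level differed. It took up 6.36% and 7.03% of the summed FPKM in wt but 2.52% and 2.01% in cko, a difference of -4.43 percentage points. With 2 libraries a group, the exact permutation test cannot give a two-sided p below 0.333, which is what it gave for this difference.

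Lyz1 showed the opposite direction at a far lower level. It was measured at 10.3 and 11.9 FPKM in wt and at 19.3 and 42.2 FPKM in cko, from 288, 282, 457 and 944 reads. Both cko libraries lay above both wt libraries, as they did for 33.6% of tested genes, whereas both lay below, as for Lyz2, in 18% of tested genes. The cko libraries differed from each other by 2.19-fold, and means were 11.1 ± 1.13 FPKM in wt and 30.8 ± 16.2 FPKM in cko (SD, n = 2), a 2.78-fold difference. The log2 fold change of 1.30 (SE 0.36, limma adjusted p = 0.223) missed both thresholds, and 2.02% of tested genes had one as high. Library cko2 carried much of it. The log2 difference from the wt mean was 1.85 in cko2 and 0.75 in cko1, and without cko1 the difference did pass the looser threshold. It also passed under TPM (1.55), without erythroid and hepatocyte genes (1.50), and with the replicate block or the crossed pairing as block (1.30 each). Without wt2, the log2 fold change was 1.40.

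**Figure D2:**
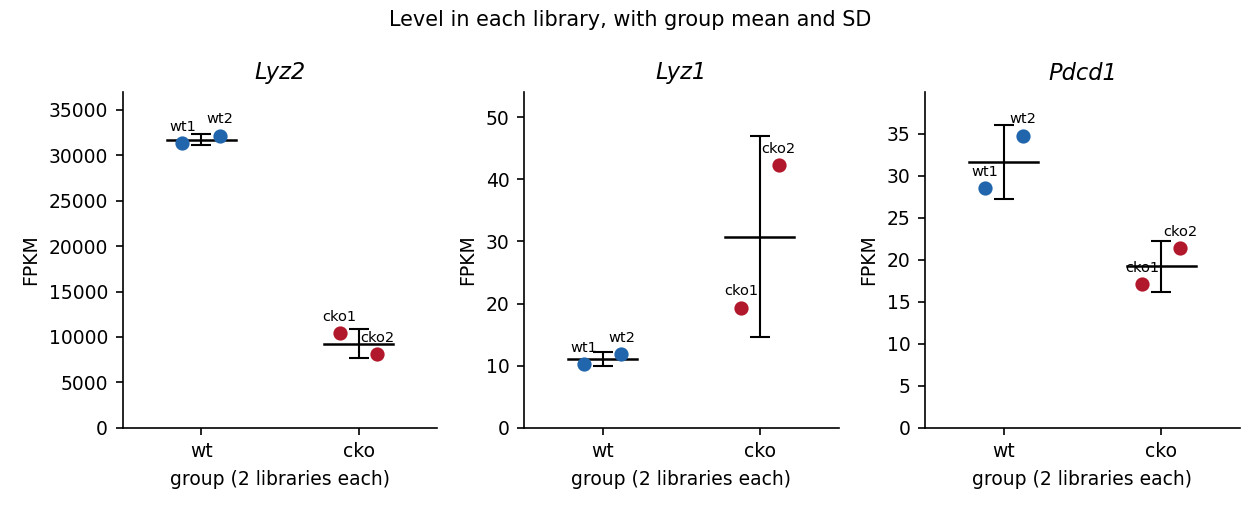
FPKM (y axes, linear, each with its own range) of Lyz2, Lyz1 and Pdcd1 in each library, with wt in blue, cko in red, the group mean as a horizontal line and the SD as error bars (n = 2). The groups do not overlap for any of the 3 genes, Lyz2 and Pdcd1 are lower in cko, and for Lyz1 the cko libraries lie apart from each other at 19.3 and 42.2 FPKM.

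The balance of the pair thus differed between the groups. Lyz2 exceeded Lyz1 3050-fold and 2710-fold in wt, and 540-fold and 192-fold in cko, by FPKM. In log2 of Lyz1 over Lyz2, the libraries stood at -11.57 and -11.40 in wt and at -9.08 and -7.59 in cko. The difference of 3.16 corresponds to 8.92-fold and exceeds the spread within either group, but the exact permutation p of 0.333 is the smallest that 2 libraries against 2 allow (two-sided). Of the reads given to either gene, Lyz1 held 0.0315% (95% Clopper-Pearson interval 0.0279 to 0.0353) and 0.0354% (0.0314 to 0.0398) in wt, and 0.177% (0.162 to 0.194) and 0.496% (0.465 to 0.529) in cko. The intervals cover counting error only. Lyz1 reads were thus more numerous in the libraries with fewer Lyz2 reads, and whether reads were shared between the genes was not tested.

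The other lysozyme-like genes were almost silent. 9530003J23Rik, a lysozyme C-like gene of the same cluster, held 25 reads in wt1 (0.667 FPKM) and 0 reads in the other libraries. Lyzl1 held 2 reads in wt1 and Lyzl6 held 3 reads in cko2. A count of 0 allows up to 3 reads in a library. Of 6 Paneth cell genes, the cell type known for Lyz1, only Itln1 was measured, at no more than 0.0789 FPKM, and the others were not analysed here.

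The genes around the pair showed smaller differences than either member. Of 15 other genes within 500 kb, 7 passed the filter on low values. None of the 7 was called, but with 1.88% of all tested genes called higher and 0.408% called lower, this count says little. Their median log2 fold change was 0.25, against 0.09 over all tested genes, with a range of -0.24 to 0.41. Cct2, a subunit of the chaperonin that folds actin and tubulin, stood at 56.5 and 60.6 FPKM in wt and 75.8 and 80.6 FPKM in cko (log2 fold change 0.41, limma adjusted p = 0.254). Yeats4, a chromatin reader and the closest tested gene on the Lyz2 side, gave 0.05 (adjusted p = 0.922) and turned lower under median-of-ratios and quantile scaling. Cpsf6, a factor of mRNA 3′ end cleavage and the closest on the Lyz1 side, gave 0.36 (adjusted p = 0.306). Mdm2, the ubiquitin ligase of p53, gave 0.25 (adjusted p = 0.431), and Frs2, an adaptor of growth factor receptors, gave -0.24 (adjusted p = 0.627), all by limma.

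**Figure D3:**
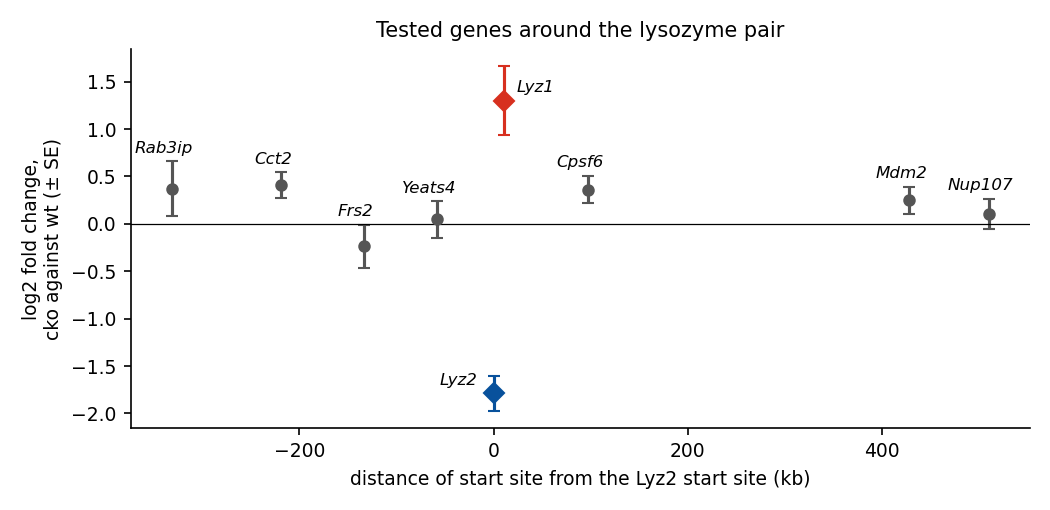
Log2 fold change with its SE (y axis, cko against wt, n = 2 each) of the 9 tested genes around the pair, by the distance of their start site from that of Lyz2 in kb (x axis, positive values on the Lyz1 side). Lyz2 at -1.79 and Lyz1 at 1.30 lie outside the range of -0.24 to 0.41 of the 7 other genes, although their start sites are 10547 bases apart.

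Genes of similar level were set beside each member. The 20 genes nearest Lyz1, with means between 20.87 and 21.03 FPKM, had a median log2 fold change of -0.06 and a range of -0.72 to 0.90. Of them, 4 had both cko libraries above both wt libraries and 6 had both below, against 33.6% and 18% of all tested genes. None was called, against 1.88% called higher and 0.408% called lower over all tested genes. Among 1512 tested genes within 1.5-fold of the mean of Lyz1, 21 had a log2 fold change at least as high.

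Few genes reach the level of Lyz2, so that only 2 lay above it and the 10 below ran down to 2855 FPKM. These 12 genes had a median log2 fold change of -0.74, 10 of them were lower and 4 were called lower, against 39.6% and 0.408% of all tested genes. Most encode neutrophil proteins. S100a8, which encodes a subunit of calprotectin, was at 32243 and 21503 FPKM in wt and 13010 and 12062 FPKM in cko. Its log2 fold change was -1.07 (limma adjusted p = 0.210). S100a8 was not called under TPM, under quantile normalization or without erythroid and hepatocyte genes. Stfa1, a stefin that inhibits cysteine proteases, gave -1.06. The actin gene Actb gave 0.32, and Fth1, the ferritin heavy chain, gave 1.10 (adjusted p = 0.253), so that not all abundant transcripts were lower. Lyz2 was lower by more than any of the 12.

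**Figure D4:**
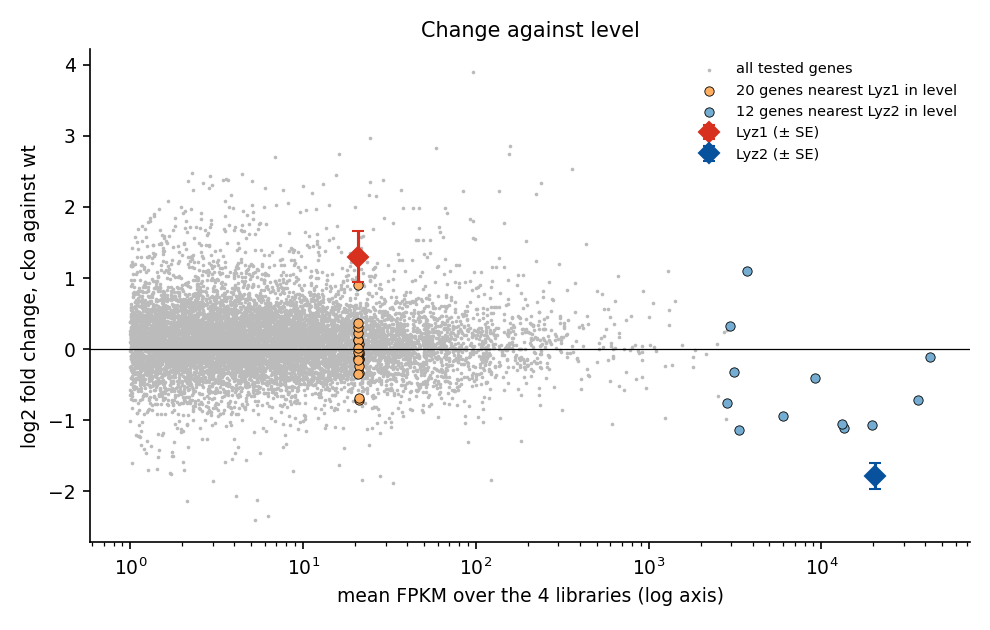
Log2 fold change (y axis, cko against wt) against mean FPKM over the 4 libraries (x axis, log scale) for 10779 tested genes in grey, with the 20 genes nearest Lyz1 in orange, the 12 nearest Lyz2 in light blue and both members as diamonds with SE bars. Lyz2 lies below all 12 genes of its level (-1.14 to 1.10) and Lyz1 above the 20 of its own (-0.72 to 0.90).

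Lyz2 was then set beside a list of antimicrobial genes of phagocytes. Of 13 other antimicrobial genes tested, 6 were higher and 7 lower in cko, with a median log2 fold change of -0.03. Between 6 and 9 were higher under the other scalings. In the main fit 2 were called lower, Camp and S100a8, against 0.408% of all tested genes. Neither was called under TPM, under quantile normalization, without erythroid and hepatocyte genes or without a filter on low values. Camp, the cathelicidin precursor of secondary granules, stood at 19301 and 17673 FPKM in wt and 9260 and 7948 FPKM in cko (log2 fold change -1.11, SE 0.17, limma adjusted p = 0.183). Ngp, another secondary granule protein, was at 43779, 43834, 46573 and 35443 FPKM in wt1, wt2, cko1 and cko2, and its groups overlapped. As a ratio within each library, Lyz2 over Ngp was 0.715 and 0.733 in wt and 0.224 and 0.229 in cko (exact permutation p = 0.333, the smallest possible). The ratio agreed closely within each group and differed between them, but its size depends on the reference gene. Ngp had a log2 fold change of -0.11, whereas the 12 genes nearest Lyz2 in level had a median of -0.74, with 10 lower and 2 higher. A ratio to a gene that was itself lower, such as Camp, would differ by less.

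Ltf, the iron-binding lactoferrin, gave a log2 fold change of -0.40 (limma adjusted p = 0.372). Lcn2, which binds bacterial siderophores, gave 0.45 (adjusted p = 0.276), and Cybb, the catalytic subunit of the phagocyte oxidase, gave -0.03 (adjusted p = 0.938). Among serine proteases of primary granules, Prtn3 went from 267 and 250 FPKM in wt to 538 and 450 FPKM in cko (0.93, limma adjusted p = 0.183) and Elane gave 0.41 (adjusted p = 0.301). Granule genes thus lay on both sides of 0. Ngp and Cybb turned to higher under TPM and without erythroid and hepatocyte genes, and Ngp and Ltf under quantile normalization.

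**Figure D5:**
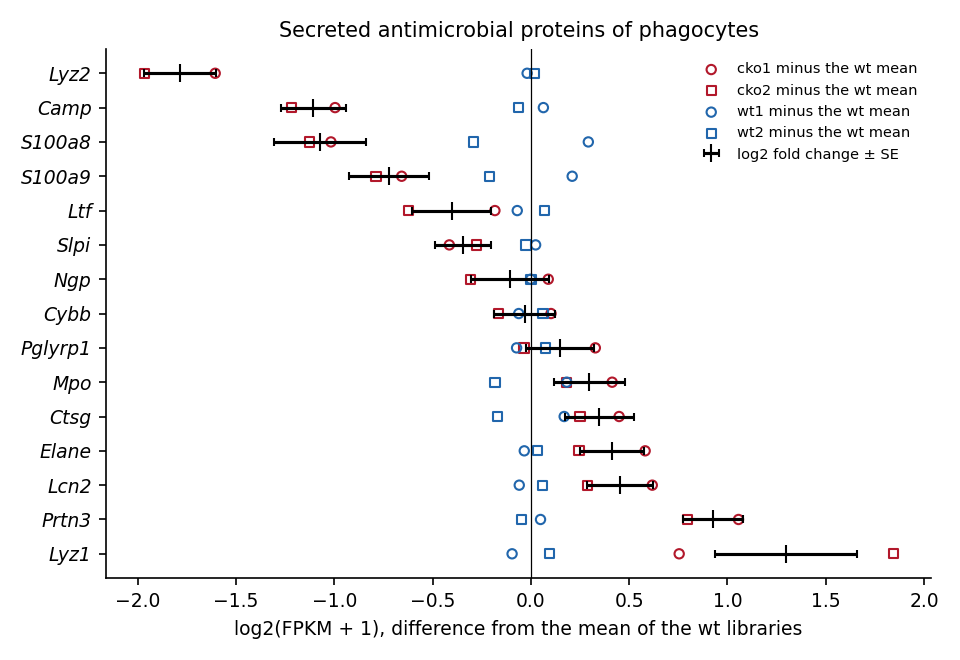
Difference of each library from the wt mean in log2(FPKM + 1) (x axis) for the 15 tested antimicrobial genes (y axis), with wt libraries in blue, cko libraries in red, replicate 1 as circles and replicate 2 as squares, and the log2 fold change with its SE in black. Lyz2 lies at one end (-1.79) and Lyz1 at the other (1.30), and Ngp and Cybb lie near 0.

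By granule class, all 8 tested genes of the primary granule list were higher in cko (7 under median-of-ratios and quantile scaling). Their median log2 fold change was 0.38, and 4 had p under 0.05, against 11.4% of all tested genes. These 4 were Elane, Prtn3, Calr and Srgn, and Srgn was at 181 FPKM in cko1 and 460 FPKM in cko2. For Mpo, Ctsg, Ms4a3 and Prss57 the limma p lay between 0.0968 and 0.825. Of 13 secondary and tertiary granule genes, 5 were higher and 8 lower, with a median of -0.11, and between 4 and 9 were higher under the other scalings. Of 8 late neutrophil genes, 4 were higher and 4 lower. At a limma p under 0.05, 3 were higher and 4 lower, against 11.4% and 4.95% of all tested genes. Of them, 1, S100a8, was called lower, against 0.408% of all tested genes. Ly6g, a surface marker of neutrophils, had 245 and 351 FPKM in wt and 200 and 143 FPKM in cko (-0.79, limma adjusted p = 0.245). Il1b, the gene of interleukin-1 beta, had 98.1 and 43.2 FPKM in wt and 151 and 594 FPKM in cko (2.19, adjusted p = 0.250).

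Monocytes and macrophages also make lysozyme. Over all tested genes, 60.4% were higher in cko and the median log2 fold change was 0.09. Of 10 monocyte genes, 9 were higher and 1 was lower in cko, with a median log2 fold change of 0.68. Of them, 4 were higher at p under 0.05, against 11.4% of all tested genes, and none was called. Cd14, the lipopolysaccharide co-receptor, stood at 123 and 65.0 FPKM in wt and at 151 and 439 FPKM in cko (1.51, limma adjusted p = 0.275). Of 13 tested macrophage and Kupffer cell genes, 9 were higher and 4 were lower, with a median of 0.12, close to that of all genes, and between 7 and 11 were higher under the other scalings. Of these, 1 gene, the heme oxygenase Hmox1, was called higher, against 1.88% of all tested genes. Hmox1 was at 84.3 and 68.7 FPKM in wt and 135 and 257 FPKM in cko. Like Lyz1, Cd14 and Il1b were highest in cko2. Summed monocyte genes gave 650 and 567 FPKM in wt and 673 and 1104 FPKM in cko, and their part in the lysozyme values was not tested.

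Of 12 tested factors known to act on lysozyme genes, 7 were higher and 5 lower, and none was called. Their median was 0.10, close to the 0.09 of all tested genes, of which 60.4% were higher. At a limma p under 0.05, 3 were higher (Spi1, Nfkb1 and Rela) and 0 lower, against 11.4% and 4.95% of all tested genes. Spi1, which encodes the ETS factor PU.1, was at 77.3 and 126 FPKM in wt and 264 and 145 FPKM in cko (0.98, limma adjusted p = 0.275). Cebpe, a C/EBP factor needed for secondary granules, was at 81.5 and 101 FPKM in wt and 89.7 and 40.9 FPKM in cko, and the groups overlapped (-0.58, adjusted p = 0.466). Rela, a subunit of NF-κB, gave 0.48 (adjusted p = 0.230). Cebpa and Cebpb did not reach a mean of 1 FPKM and were not tested.

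By profile, the genes most like Lyz1 were Gdap10, Ets2 and Irf5, among 3816 genes of at least 10 FPKM on average. Likeness was the Euclidean distance between centred log2(FPKM + 1) profiles over the 4 libraries, which was 0.13, 0.15 and 0.21. Ets2, for example, stood at 17.3, 18.0, 28.0 and 60.5 FPKM in wt1, wt2, cko1 and cko2. The next were 2810474O19Rik, Pla2g7, Birc3, Nfkbia, Csrnp1, Socs1 and Tarm1, up to a distance of 0.30. For Lyz2 no gene came as close. Its nearest were Arl11, Ighv1-73 and Camp, at 0.67, 0.69 and 0.70, and Arl11, for example, stood at 31.9 and 33.0 FPKM in wt and 16.1 and 12.9 FPKM in cko. With 4 libraries, such likeness is a description only.

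Markers of several other cell types were also lower in cko, where 39.6% of all tested genes were lower and 0.408% were called lower. Of 11 erythroid genes, 10 were lower (9 under TPM), 2 of them called, and they summed to 3752 and 2362 FPKM in wt and 1441 and 1542 FPKM in cko. Of 7 tested hepatocyte genes, 6 were lower, 1 of them called, with sums of 85.1 and 144 FPKM in wt and 60.4 and 73.1 FPKM in cko. All 7 tested B cell genes were lower (6 under TPM and without erythroid and hepatocyte genes) and none was called, and 3 of 4 tested T and NK cell genes were lower, 2 of them called. Mast cell, basophil and eosinophil genes were lower in 6 of 8 (5 to 7 under the other scalings), none called. Endothelial and stromal genes were split, with 4 higher and 4 lower and 1 called in each direction, and 6 were lower under median-of-ratios and quantile scaling. Both tested megakaryocyte genes were lower, but only 1 of them under TPM and without erythroid and hepatocyte genes. No dendritic cell gene reached the filter. The part of these cells in the lysozyme values was not tested. None of the measured erythroid or hepatocyte genes was at 0 in every library. With both of these lists removed and the libraries rescaled, the log2 fold change of Lyz2 was -1.57 (limma adjusted p = 0.103) and that of Lyz1 was 1.50 (adjusted p = 0.131). Rescaling to TPM with all genes kept gave -1.57 and 1.55. Removing the listed genes does not remove the other RNA of these cells, so that these values do not measure their part.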

How the data were processed

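RNA-seq libraries of myeloid cells were grouped by their labels into wt and cko (n = 2 each). The authors deposited FPKM per gene, 1 library per file, with no scaling between libraries. The processing notes name TopHat2 2.0.12, Bowtie2 2.2.3, HTSeq 0.6.0 and the build mm9 without roles. Nevertheless, start and end matched GENCODE M21 (GRCm38) for 92.6% of genes, and that annotation gave coordinates here. Read length, strand and multiple alignments are not given in the sources used here. Dividing FPKM by the value of 1 read gave whole reads for 91.2% of genes (tolerance 0.01).

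Differences were fitted with limma 3.58.1 (lmFit, eBayes with a trend) in R 4.3.3 on log2(FPKM + 1) for the 10779 genes that reached a mean of 1 FPKM, with Benjamini-Hochberg adjustment. A fold change on this scale understates the change of low genes. Single values were compared by exact permutation tests. Genes called are those at an unadjusted p under 0.01 and a log2 fold change above 1 in size, the threshold of the study's results, and its methods use an adjusted p under 0.05 with at least 1. Data were simulated for this design with a dispersion set to 0.04. Of 171 genes with a true log2 fold change of 2, 93.6% were recovered at either threshold, with a median bias of -0.37. There were 10 false calls among 9429 genes at the adjusted threshold and 17 at the unadjusted one. The dispersion was not estimated from these libraries, so that the share recovered does not give the power here. Alternatives covered the pseudocount (0.1), filter (none, 5 FPKM), scaling, trend, replicate block, voom on reads and each library left out. A crossed block was added after seeing the data.

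The genes named are Lyz1, Lyz2, Pdcd1, members of 17 lists, genes within 500 kb, the 10 nearest in level above and below each member and the 10 nearest in profile. Acod1, Gm28875 and Ddx3y fall outside this rule and were chosen after their values were seen. The members and lists were chosen with earlier results of these data known. Of 11 lysozyme family genes listed, 4 were measured and the others were not analysed here.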

Additional observations from a re-analysis of the deposited data

How the results depend on the processing

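Lyz2 kept its direction under every alternative run, from -1.96 to -1.61 with each library left out in turn. It no longer passed an unadjusted p of 0.01 with a log2 fold change of 1 without a filter on low values (-1.79, SE 0.83, the error rising as 24706 genes entered the fit) and under quantile normalization (-0.16), which sets values by rank, and the rank of Lyz2 was 4, 3, 4 and 4. Lyz1 stayed higher, from 0.75 to 1.85 with a library left out. It passed that threshold at 1.55 after rescaling to TPM, 1.50 without erythroid and hepatocyte genes, 1.30 with a replicate block or a crossed pairing as block, and 1.85 without cko1. With a library left out, Pdcd1 ranged from -0.84 to -0.54 and the log2 ratio of Lyz1 to Lyz2 from 2.41 to 3.90. The share of Lyz2 then ranged from -4.76 to -4.09 points. Pdcd1 was smaller in size, at -0.49, both under TPM and without erythroid and hepatocyte genes. It was not called in the main fit, and no other alternative changed the call of these results.

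The count of genes past the unadjusted threshold, 247, became 126 at a minimum of 5 FPKM and 500 under TPM, and ran from 131 without cko2 and 147 without wt1 to 462 without cko1. The cause was not tested. That past the adjusted threshold was 0 to 0 with a library left out and 2 with voom on reads. Scaling moved the median log2 fold change of all genes from 0.09 to -0.02 under quantile normalization, 0.30 under TPM and 0.27 without erythroid and hepatocyte genes. The split of higher against lower calls went from 203 and 44 to 142 and 72 under median-of-ratios scaling, 146 and 74 under quantile normalization, 468 and 32 under TPM and 351 and 17 without those genes. Same-numbered libraries did not deviate together (r = -0.16 across genes), and the numbers are not stated to pair animals. With the replicate block, 258 genes passed the unadjusted threshold and 0 the adjusted one, with the numbers crossed 363 and 1 (Acod1). Of 1724 values for 119 other named genes, 1642 kept their side of the threshold, 46 lost it, 35 gained it and 1, S100a8, reversed beyond its error at 0.16 under quantile normalization. In all, 99 of these values changed sign.

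Limits are the 2 libraries a group, paralogs whose transcripts were 92.0% identical, and a Cre allele that always goes with floxed Pdcd1 in cko. Lyz1 rests on 282 to 944 reads and Lyz2 on at least 189208.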
